A study of Mus musculus with 7 samples.

Results

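The retinoic acid receptor and metabolism genes examined here are 10 genes taken by symbol from the 48440 genes of the deposited expression table. They are the retinoic acid receptors Rara, Rarb and Rarg, the retinoid X receptors Rxra and Rxrb, the retinol dehydrogenase Rdh10, the retinal dehydrogenases Aldh1a1, Aldh1a2 and Aldh1a3, and the degrading enzyme Cyp26b1. All 10 were in the table, and 9 passed the filter on low values (a mean normalized count of at least 10 over all libraries, which 16251 genes passed). The exception was Aldh1a3. The rule that selects them uses the symbol and no measured value, but the members were chosen with earlier results of these data known.

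The libraries come from LSK cells, the lineage-negative bone marrow (BM) fraction with Sca1 and cKit on its surface, in which the hematopoietic stem cells (HSCs) and the multipotent progenitors lie. Recipient C57BL/6 mice were lethally irradiated with 9.5 Gy and reconstituted with BM of either wild-type mice or mice with a constitutive PROSER1 KO made with an endonuclease, and LSK cells were sorted from the chimeras on day 77 without any further treatment. PROSER1 is an interaction partner of the TET enzymes, which oxidize methylated cytosine in DNA. The comparison is between 4 wild-type and 3 PROSER1 KO libraries of polyA RNA, which the labels call biological replicates. All 7 share the irradiated wild-type host, and the KO affects every donor cell and not LSK cells alone. The ages of the mice, and whether a library holds 1 mouse or several, are not given in the sources used here, so p-values measure only the spread between these libraries, which may be technical.

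Depth was 33143619 to 42742329 read pairs on genes in the wild-type libraries and 37140168 to 45140743 in the PROSER1 KO libraries. A count of 0 allows 3 read pairs, which is a normalized count between 2.54 and 3.48 depending on the library. This limit covers counting error only. The targeted gene did not mark the groups by a lower level: the libraries labelled PROSER1 KO had Proser1 normalized counts of 2338 to 2464, against 2019 to 2153 in wild-type. Gene counts do not show an edit inside the gene, so every direction given here rests on the labels. The LSK gate and progenitor genes (Kit, Ly6a, Cd34, Flt3 and Ptprc) were all detected and summed to normalized counts of 101745 to 111154 in wild-type and 104501 to 106878 in PROSER1 KO libraries. All libraries also held plasma cell transcripts, and a list of 9 such genes took 3.62% to 7.92% of the normalized counts in wild-type and 3.41% to 4.88% in PROSER1 KO libraries. The RNA is from a bulk population, in which fewer cells of a type and less RNA per cell cannot be told apart.

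Retinoic acid is made from vitamin A in 2 steps: a retinol dehydrogenase such as RDH10 oxidizes retinol to retinal, and ALDH1A enzymes oxidize retinal to retinoic acid. CYP26 enzymes break retinoic acid down. Retinoic acid binds receptors of the RAR family, which sit on DNA as pairs with an RXR, hold corepressors without ligand and take up coactivators with it. In the hematopoietic system the pathway is known for its part in granulocyte differentiation (RARA, which is fused to PML in acute promyelocytic leukemia), in HSC self-renewal (RARG) and in HSC dormancy (CYP26B1), and ALDH activity is used as a marker in stem cell sorting.

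The DNA element that RAR and RXR pairs bind is a direct repeat of a 6-base core, the hexamer. The search used the hexamer AGGTCA and its variants, GGGTCA with a changed first base, AGTTCA with a changed base in its middle and GGTTCA with both changes, on both strands, either alone or as direct repeats with 1, 2 or 5 bases between them, so that each repeat also counts among the single hexamers. It covered 32851 RefSeq promoter windows (GRCm38.p6) of 300 bases, from 250 before to 50 after a start. Of the members, 8 had such windows, 15 in all. A direct repeat with 5 bases between the hexamers was found in 0.0974% of all windows, and in 1 member, Rarb, where it lay 53 to 37 bases before the start. On the list of other pathway genes given further down, it was found in Cyp26a1 alone, 32 to 16 bases before the start and on the opposite strand. No member window held a repeat with a spacing of 2 (0.268% of all windows) or of 1 (0.222%). A single hexamer is a common match, in 43.7% of all windows and in 6 of the 15 member windows. The 100 bases before the start are shown for these 2 genes, and for Cyp26b1 and Aldh1a1, the members with the highest PROSER1 KO values relative to wild-type among those whose groups did not overlap. Hexamers on either strand are in capitals and every sequence reads toward its own gene. The stretches are chr14:16575477-16575576 (minus strand) for Rarb, chr19:37697708-37697807 (plus strand) for Cyp26a1, chr6:84593811-84593910 (minus strand) for Cyp26b1 and, for the downstream RefSeq start of Aldh1a1, chr19:20601868-20601967 (plus strand).
Rarb: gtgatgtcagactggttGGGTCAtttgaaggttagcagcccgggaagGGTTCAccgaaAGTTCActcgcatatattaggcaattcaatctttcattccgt
Cyp26a1: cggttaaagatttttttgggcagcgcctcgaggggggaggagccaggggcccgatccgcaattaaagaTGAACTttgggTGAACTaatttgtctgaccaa
Cyp26b1: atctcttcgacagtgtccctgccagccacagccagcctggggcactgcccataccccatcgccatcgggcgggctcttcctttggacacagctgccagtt
Aldh1a1: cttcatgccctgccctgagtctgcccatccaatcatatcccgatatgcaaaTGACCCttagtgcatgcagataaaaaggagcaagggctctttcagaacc
In Rarb the repeat is made of GGTTCA on the left and, after 5 bases, AGTTCA on the right. The Cyp26b1 stretch holds no hexamer and that of Aldh1a1 holds 1. The 100 bases before the upstream RefSeq start of Aldh1a1 (chr19:20492483-20492582) hold 0, and the downstream start is shown because it holds the match. A match is a description of the letters, and which start the LSK cells used cannot be read from counts per gene.

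Levels between genes were compared per kilobase (kb) of exon, with all exons of a gene merged. Rxrb was the most abundant member at 1126 ± 47.9 normalized counts per kb in wild-type (SD, n = 4) and 1208 ± 62.6 in PROSER1 KO libraries (SD, n = 3), above 89.5% of all genes tested. Aldh1a1 came next, at 328 ± 55.5 per kb in wild-type and 455 ± 51.7 in PROSER1 KO libraries. Rara, Rarg and Rxra followed with means over all 7 libraries of 179, 172 and 167 per kb, and their ranges overlapped, so that these 3 cannot be ranked. Rdh10 had a mean of 110.2 per kb and did not overlap with Rxra above it or with Cyp26b1 below it. The remaining members were low. Cyp26b1 had a mean of 20.5 per kb, Rarb of 14.6 and Aldh1a2 of 5.98, with overlapping ranges between neighbors, and Aldh1a3 was at 0.516. The libraries of both groups thus held RNA of Rara, Rarg, Rxra, Rxrb, Aldh1a1 and Rdh10, with Cyp26b1 at a low level and a Rarb count that overlaps with another gene. With the longest transcript as the length, Rarg and Rara changed places, as did Rarb and Cyp26b1.

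**Figure D1:**
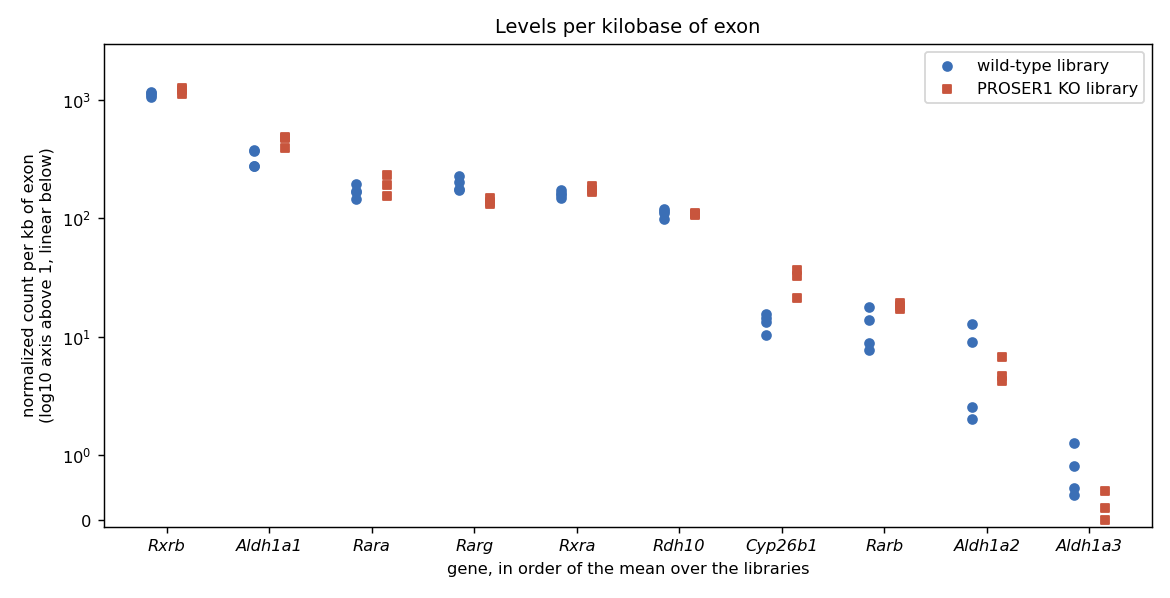
Normalized count per kb of exon (y, log10 axis above 1 and linear below) for each of the 10 genes (x), with 1 point per library: circles for the 4 wild-type and squares for the 3 PROSER1 KO libraries. Rxrb stands highest, Rara, Rarg and Rxra lie at the same height, and the Cyp26b1 points of the groups are apart while those of Aldh1a2 spread widely.

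Differences between the groups were tested with limma over all 16251 genes on the log2(normalized count + 1) scale. A gene counted as called if its adjusted p-value was under 0.05 and its fold change over 1.5. Values per library are given in the order of the replicate numbers, 1 to 4 for wild-type and 1 to 3 for PROSER1 KO. Of the 9 members tested, 0 were called by limma and 0 by edgeR, against 42 (0.258%) of all genes with limma and 40 with edgeR. Without adjustment, 3 of 9 had a limma p-value under 0.05 (Cyp26b1, Rarg and Aldh1a1), against 9.73% of all genes tested. DESeq2 on the recovered read pairs called 1 member, Cyp26b1, against 0.873% of the 18903 genes to which it gave an adjusted p-value, and put 3 members below 0.05 at any fold change against 1.65%. Normalized counts of the groups did not overlap in 3 of 9 members, Cyp26b1 and Aldh1a1 with PROSER1 KO above and Rarg with PROSER1 KO below. Over all genes tested, the PROSER1 KO libraries lay above the wild-type libraries without overlap in 5.17% and below them in 4.83%. The median log2 fold change was 0.13 over the 9 members and 0.0015 over all genes tested. With 9 members, chosen with earlier results of these data known, these shares describe the members and support no statement that they differ from other genes.

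**Figure D2:**
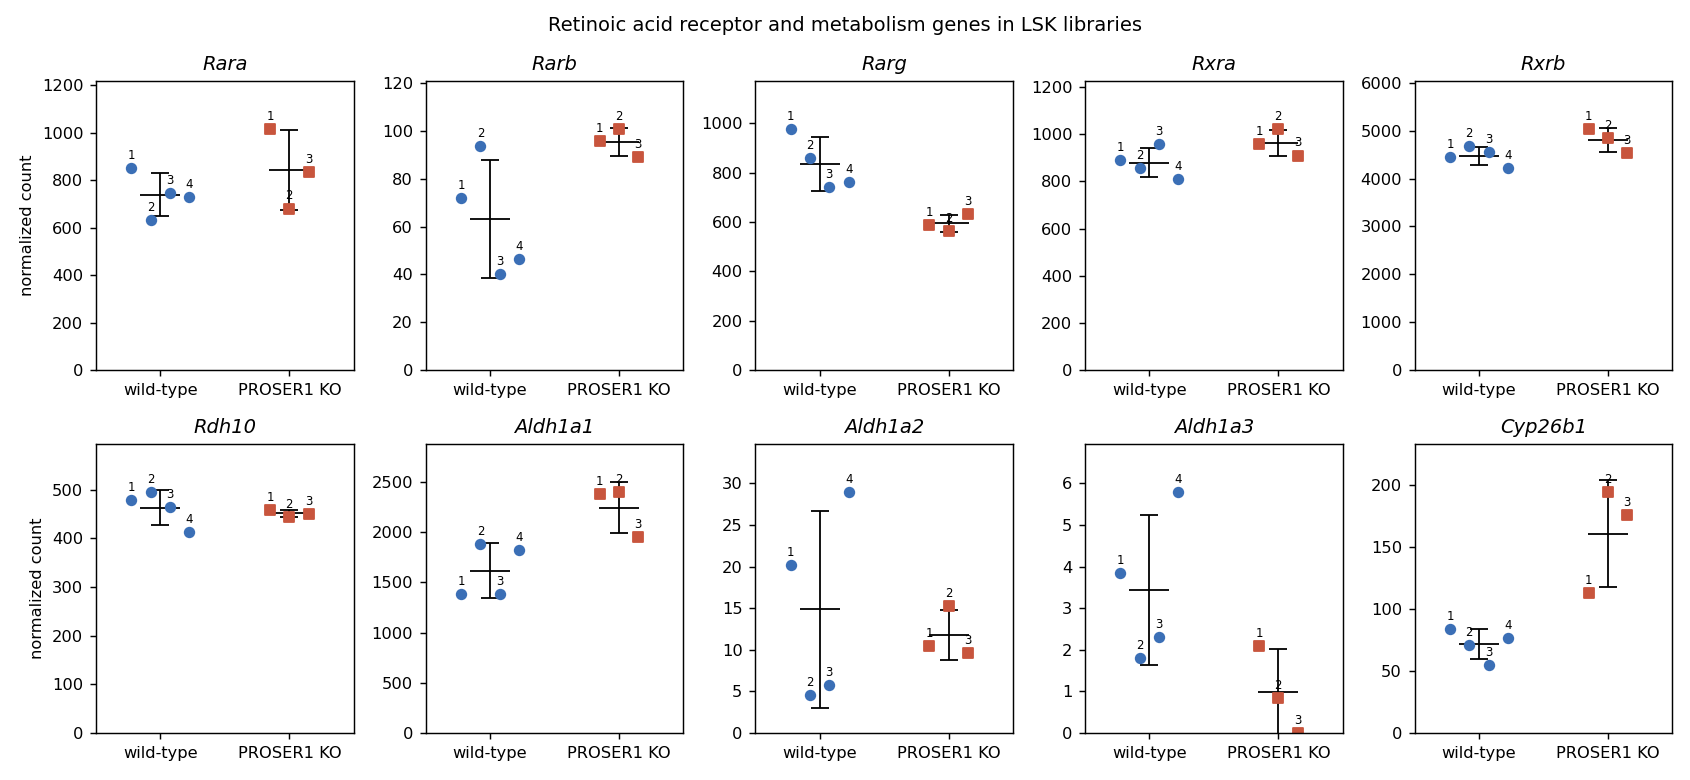
Normalized count (y, from 0, a separate scale per gene) of each gene in the 4 wild-type (circles) and 3 PROSER1 KO libraries (squares), numbered by replicate, with horizontal bars for the group mean and whiskers for the SD. All 3 PROSER1 KO squares lie above the wild-type circles for Cyp26b1 and Aldh1a1 and below them for Rarg, and the groups overlap for the other genes.

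Among the 5 receptors, Rarg was the only one whose groups did not overlap. Rarg (ENSMUSG00000001288, at 102234938 to 102257517 on the reverse strand of chromosome 15) had normalized counts of 976, 861, 740.2 and 760.5 in wild-type against 588, 565 and 632 in PROSER1 KO libraries. Every PROSER1 KO library was below every wild-type library. The means of 834 ± 108 (SD, n = 4) and 595 ± 33.8 (SD, n = 3) gave a log2 fold change of −0.48 (standard error 0.11, 95% interval −0.72 to −0.24, limma adjusted p = 0.146). The adjusted p-value was 0.138 with edgeR and 0.00290 with DESeq2, where the log2 fold change of −0.49 was short of the 1.5-fold minimum. With each library left out in turn, the limma log2 fold change stayed between −0.53 and −0.40 and the DESeq2 adjusted p-value between 0.000999 and 0.0496.

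Rara, the receptor of granulocyte differentiation, had normalized counts of 850.1, 633, 745 and 729 in wild-type against 1014, 680.3 and 832 in PROSER1 KO libraries. The groups overlapped, with PROSER1 KO replicate 1 the highest and wild-type replicate 2 the lowest of all. The log2 fold change was 0.18 (standard error 0.14, 95% interval −0.14 to 0.49, limma adjusted p = 0.724).

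Per kb of exon, Rarg was above Rara in all 4 wild-type libraries, with ratios of 1.18, 1.39, 1.02 and 1.07 in replicates 1 to 4. It was below Rara in all 3 PROSER1 KO libraries, at 0.594, 0.851 and 0.777. A ratio within a library does not depend on the size factor, but it depends on the lengths used. Without the lengths it was 0.994 to 1.36 in wild-type and 0.580 to 0.831 in PROSER1 KO libraries. Wild-type replicate 3, at 0.994, was then below 1, so which gene is higher there is not settled. The mean ratio was 1.16 ± 0.167 (SD, n = 4) in wild-type and 0.741 ± 0.132 (SD, n = 3) in PROSER1 KO libraries. This pair was set side by side after its values were seen, so the ratio is given without a test.

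**Figure D3:**
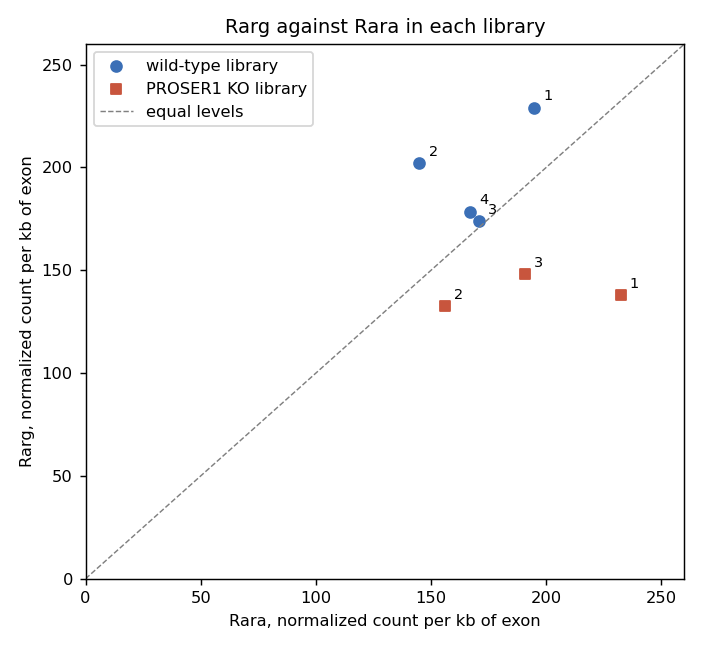
Rarg (y) against Rara (x), both in normalized counts per kb of exon, with 1 numbered point per library and a dashed line of equal levels. The 4 wild-type circles lie above the line, wild-type replicate 3 close to it, and the 3 PROSER1 KO squares lie below it with Rarg between 133 and 148.

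Rarb, itself a known target of retinoic acid through the repeat shown above, was low and variable, with normalized counts of 72.1, 93.8, 40.2 and 46.4 in wild-type against 96, 101 and 89.3 in PROSER1 KO libraries. Wild-type replicate 2 lay within the PROSER1 KO range, and the wild-type libraries differed among themselves more than the PROSER1 KO libraries did (SD 24.7 against 5.73). The log2 fold change was 0.67 (standard error 0.30, 95% interval −0.01 to 1.34, limma adjusted p = 0.515). The Rarb count is uncertain in addition. Of its 5265 exon bases, 1793 are shared with exons of Top2b on the opposite strand, and 227 with the antisense gene Gm48162, and the strand setting of the counting is not given in the sources used here. Top2b, which encodes a DNA topoisomerase, had normalized counts of 12972 to 13814 in wild-type and 13240 to 13656 in PROSER1 KO libraries. How far its reads enter the Rarb count was not tested. No other member shares exon bases with another gene.

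The RXR partners differed little. Rxra normalized counts were 890.5, 855, 957 and 810.3 in wild-type against 957, 1021 and 909 in PROSER1 KO libraries, which overlapped (log2 fold change 0.13, standard error 0.078, 95% interval −0.04 to 0.31, limma adjusted p = 0.624). Rxrb had 4439.8, 4674, 4549 and 4226 in wild-type against 5028, 4840.2 and 4535 in PROSER1 KO libraries, also overlapping (log2 fold change 0.10, standard error 0.054, 95% interval −0.02 to 0.22, limma adjusted p = 0.579). In fold terms, the intervals ran from 0.970 to 1.24 for Rxra and from 0.987 to 1.17 for Rxrb, so that for both of them a difference of 1.5-fold lies outside the interval.

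Among the synthesis enzymes, Aldh1a1 was the only one whose groups did not overlap. Aldh1a1 (ENSMUSG00000053279, at 20492715 to 20643465 on the forward strand of chromosome 19) had normalized counts of 1383, 1886, 1382 and 1824 in wild-type against 2387, 2403 and 1953 in PROSER1 KO libraries. Every PROSER1 KO library was above every wild-type library, PROSER1 KO replicate 3 only just above wild-type replicate 2. The group means of 1618 ± 274 (SD, n = 4) and 2248 ± 255 (SD, n = 3) gave a fold change of 1.40 with a 95% interval of 1.14 to 1.71 (log2 fold change 0.48, standard error 0.13, limma adjusted p = 0.236). The DESeq2 adjusted p-value was 0.00509 at a log2 fold change of 0.47, below the 1.5-fold minimum, and the edgeR adjusted p-value was 0.249. With each library left out in turn, the DESeq2 adjusted p-value lay between 0.000357 and 0.0682, above 0.05 without PROSER1 KO replicate 2 alone.

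Rdh10, the enzyme of the first step, differed little. It had normalized counts of 479.8, 496, 466 and 414 in wild-type against 459, 444 and 451 in PROSER1 KO libraries, so that the PROSER1 KO values lay inside the wild-type range. The log2 fold change was −0.04 (standard error 0.092, limma adjusted p = 0.938), and its 95% interval of 0.846 to 1.13 in fold terms leaves out 1.5-fold in either direction.

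Aldh1a2 and Aldh1a3 were scarce. Aldh1a2 normalized counts were 20.2, 4.51, 5.75 and 29 in wild-type against 10.4, 15.2 and 9.60 in PROSER1 KO libraries. Wild-type replicates 1 and 4 were high and wild-type replicates 2 and 3 low, with the PROSER1 KO libraries between them. Replicates 1 and 4 were also the wild-type libraries with the highest summed normalized count of the plasma cell list, 2450419 and 3230073 against 2047187 and 1380693 in replicates 2 and 3. The PROSER1 KO libraries did not follow this order, since replicate 2 had the highest Aldh1a2 count and the lowest plasma cell sum of the 3 (1302075, against 1878283 in replicate 1 and 1910774 in replicate 3). Plasma cells were not alone in this, among the marker lists given further down. Wild-type replicates 1 and 4 were also highest in the lineage genes outside the gate (1639 and 1732). The same held for macrophages and dendritic cells (1966 and 1967) and for mast cells, basophils and eosinophils (13417 and 16343). In these lists too, PROSER1 KO replicate 2 had the lowest sum of its group. The sums of the stromal and endothelial, long-term HSC and LSK gate lists were not highest in these libraries. Of the stromal and endothelial list, Cdh5, Kdr and Lepr were highest in wild-type replicates 1 and 4, and the other genes were not. Among the PROSER1 KO libraries these genes were highest in replicate 3, where Aldh1a2 was lowest. The part of any of these cells in the Aldh1a2 values was not tested. The log2 fold change of 0.02 had a 95% interval from −1.44 to 1.47 (limma adjusted p = 0.997), which holds a 2-fold difference in either direction. Aldh1a3 had 4, 2, 2 and 5 read pairs in wild-type against 2, 1 and 0 in PROSER1 KO libraries, at or near the limit of 3, and no difference between the groups is read from it.

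Cyp26b1, the enzyme of retinoic acid breakdown, had the largest fold change among the members tested. Cyp26b1 (ENSMUSG00000063415, at 84571414 to 84593908 on the reverse strand of chromosome 6) had normalized counts of 83.7, 71.2, 55.2 and 76.5 in wild-type against 113, 195 and 176 in PROSER1 KO libraries, from 48 to 87 and from 108 to 230 read pairs. The groups did not overlap, and PROSER1 KO replicate 1 was nearer to the wild-type libraries than the other 2 were. The group means were 71.6 ± 12.1 (SD, n = 4) and 161 ± 42.9 (SD, n = 3). The fold change was 2.20 with a 95% interval of 1.51 to 3.19 (log2 fold change 1.14, standard error 0.24, limma adjusted p = 0.130, edgeR adjusted p = 0.128). It was called with DESeq2 (log2 fold change 1.17, adjusted p = 0.00104) and with robust variance estimates in limma (adjusted p = 0.0473). The DESeq2 call was lost without PROSER1 KO replicate 2 or without PROSER1 KO replicate 3, where the highest adjusted p-value was 0.0813. The direction was the same without any 1 library, with limma log2 fold changes of 0.98 to 1.37.

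Values of markers of other cells are given beside these differences. The long-term HSC list (14 genes, 0 called) summed to normalized counts of 29184 to 32472 in wild-type and 29850 to 32076 in PROSER1 KO libraries, and 11 of its 14 log2 fold changes were above 0 with a median of 0.19. The stromal and endothelial list (10 genes, of which 8 were tested and 0 called) summed to 7229 to 8944 and 8395 to 8985, with 5 of 8 log2 fold changes above 0 and a median of 0.44. The macrophage and dendritic cell list (10 genes, 0 called) summed to 1528 to 1967 and 1693 to 2132, with 8 of 10 above 0 and a median of 0.22. The list of mast cells, basophils and eosinophils (9 genes, 8 tested) summed to 11976 to 16343 and 11326 to 12844, with 0 called by limma and 1 by DESeq2, 2 of 8 log2 fold changes above 0 and a median of −0.36. The lineage genes outside the gate (7 genes, 6 tested, 0 called) summed to 1013 to 1732 and 883 to 1521, with 3 of 6 above 0 and a median of −0.04. The plasma cell list (9 genes, 0 called) had 0 of 9 above 0 and a median of −0.25. Sums are led by the most abundant genes of a list. PROSER1 KO replicate 1 stood apart in a T cell marker, Cd3e, named after its values were seen, with a normalized count of 197, against 5.75 to 24.04 in the other 6. Without this library the limma log2 fold changes were 1.37 for Cyp26b1, 0.44 for Aldh1a1, −0.47 for Rarg and 0.03 for Rara. In each of these lists the sums of the groups overlapped, and 0 of the lists had a gene at or under 3 read pairs in all libraries. The part of such cells in the values of Cyp26b1, Aldh1a1 and Rarg was not tested.

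The rest of the retinoid pathway was followed with a list of 85 other genes, of which 84 were in the table and 54 passed the filter. With limma 0 were called in either direction, the lowest adjusted p-value was 0.126, and 8 of 54 (14.8%) had an unadjusted p-value under 0.05, against 9.73% of all genes tested. The groups did not overlap in 9 genes, 5 with PROSER1 KO above (9.26%, against 5.17% of all genes) and 4 below (7.41%, against 4.83%). The median log2 fold change was 0.02, with 31 above and 23 below 0. Since the list was written with earlier results of these data known, these shares support no statement that its genes differ from others. DESeq2 called 2 of the 85, Asb2, which stayed called without any 1 library, and Lpl, which stayed called in 1 of 7 such fits. For each role, up to 2 genes are named, taken from the largest log2 fold changes in either direction among those tested.

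Uptake and carriage were represented by few genes. Of 10 carriers and receptors 2 passed the filter, and 6 were at or under 3 read pairs in every library, among them Stra6, Crabp1 and Ttr with 0 read pairs in all of them. Fabp5, which passes retinoic acid to PPAR delta, had 960.1 to 1132 normalized counts over the 7 libraries (log2 fold change −0.04, limma adjusted p = 0.923). Its direction was not the same with every library left out in turn.

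Of the storage and cleavage genes, Lrat, which esterifies retinol, had 0 read pairs in every library. Lpl, the lipoprotein lipase, which also hydrolyzes retinyl esters, had normalized counts of 106, 71.2, 40.2 and 83.5 in wild-type against 130.4, 146, and 177 in PROSER1 KO libraries. The PROSER1 KO libraries were all above the wild-type libraries (log2 fold change 1.07, standard error 0.31, limma adjusted p = 0.279, DESeq2 adjusted p = 0.0337). The DESeq2 call held without wild-type replicate 1 (adjusted p = 0.00833) and was lost without any other 1 library, with adjusted p-values of 0.0511 to 0.343. Bco2, which cleaves carotenoids, overlapped between the groups (log2 fold change 0.19, limma adjusted p = 0.785).

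Among 19 enzymes that interconvert retinol and retinal, 11 were tested, 4 with log2 fold changes above and 7 below 0. Dhrs3, which reduces retinal back to retinol, had normalized counts of 1854, 1664, 1895 and 1741 in wild-type against 1592, 1455 and 1524 in PROSER1 KO libraries. All PROSER1 KO libraries were below all wild-type libraries, by a small step (log2 fold change −0.23, standard error 0.064, limma adjusted p = 0.254, DESeq2 adjusted p = 0.0948). Rdh1 was near the filter and overlapped (log2 fold change −0.16, limma adjusted p = 0.952), with a direction that turned with DESeq2 and edgeR. The other synthesis and degradation enzymes (Aldh8a1, Cyp1b1, Cyp26a1 and Cyp26c1) did not pass the filter. Cyp26a1, whose promoter window holds the repeat shown above, had normalized counts of 0.846 to 8.35, so that Cyp26b1 was the only CYP26 gene tested in these libraries.

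Among 15 other RXR partners and nuclear receptors, 12 were tested and 7 had log2 fold changes above 0. Rxrg, the remaining RXR gene, was scarce, with normalized counts of 17.3, 15.3, 14.9 and 13.9 in wild-type against 12.5, 5.92 and 7.68 in PROSER1 KO libraries. The groups did not overlap (log2 fold change −0.81, standard error 0.40, limma adjusted p = 0.553). Nr1h3, the oxysterol receptor LXR alpha, overlapped (log2 fold change 0.38, limma adjusted p = 0.694).

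The cofactors were abundant, with small differences between the groups. All 8 corepressors were tested, with log2 fold changes from −0.04 to 0.11 led by Tbl1xr1 at 0.11 (3087 to 3352 in wild-type, 3449 to 3535 in PROSER1 KO libraries, limma adjusted p = 0.512) and Sin3a at 0.08 (5656 to 5823 and 6000 to 6149, limma adjusted p = 0.542). For both, the groups did not overlap. All 8 coactivators were tested, with log2 fold changes from −0.12 to 0.16 led by Med1 at 0.16 (limma adjusted p = 0.425) and Ep300 at 0.13 (limma adjusted p = 0.547), whose groups overlapped. In 1 of the other coactivators the groups did not overlap, with PROSER1 KO below.

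Of 14 genes known to be induced by retinoic acid, 10 were tested. Their log2 fold changes were above 0 in 6 and below 0 in 4, with a median of 0.24, and 4 of 10 had an unadjusted p-value under 0.05, against 9.73% of all genes tested. These were Asb2 and Cd38, described next, and Tgm2 (log2 fold change 0.34, limma adjusted p = 0.512) and Hoxb4 (log2 fold change 0.23, limma adjusted p = 0.486), whose groups overlapped and which are named because the count is small. Because these genes were listed with earlier results of these data known, the share supports no statement that they differ from other genes. The largest change was below 0. Asb2, a ubiquitin ligase subunit induced by retinoic acid in leukemia cells, had normalized counts of 368, 233, 198 and 204 in wild-type against 131, 110.01 and 108 in PROSER1 KO libraries. Every PROSER1 KO library was below every wild-type library, of which replicate 1 was the highest. The log2 fold change was −1.06 (standard error 0.22, limma adjusted p = 0.126, edgeR adjusted p = 0.148), called with DESeq2 (adjusted p = 0.000295) and with robust variance estimates (adjusted p = 0.0329). Cd38, a surface enzyme that consumes NAD, had 176, 201, 122 and 199 in wild-type against 246, 209 and 288 in PROSER1 KO libraries, again without overlap (log2 fold change 0.52, standard error 0.20, limma adjusted p = 0.440). Stra8 did not exceed a normalized count of 1.69 in any library.

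**Figure D4:**
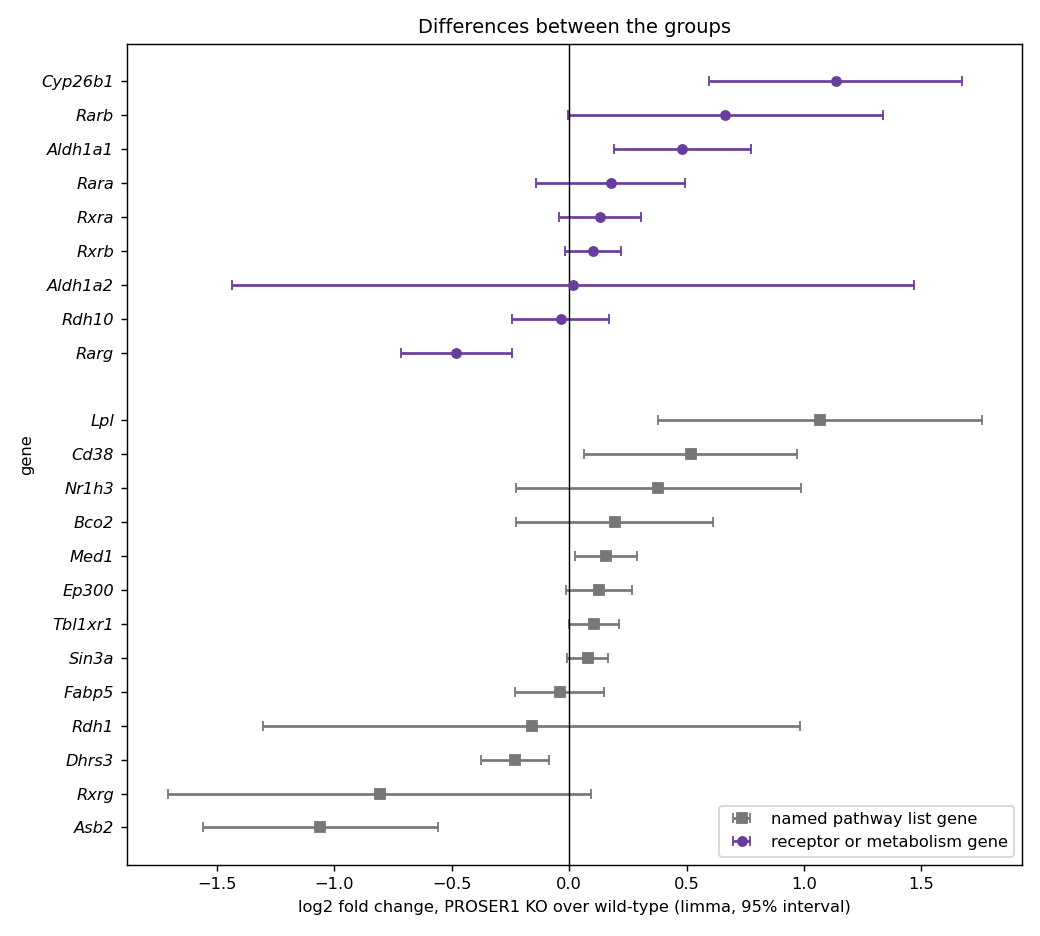
Log2 fold change of PROSER1 KO over wild-type (x) with its 95% interval in limma for the 9 members tested (circles, top) and the 13 named genes of the pathway list (squares, bottom), on the log2(normalized count + 1) scale. Cyp26b1, Aldh1a1 and Rarg are the members whose interval leaves out 0, none of them with an adjusted p-value under 0.05 in this fit, and the Aldh1a2 interval is the widest.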

How the data were processed

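RNA of sorted LSK cells was sequenced in 4 wild-type and 3 PROSER1 KO libraries, grouped by their labels. The authors trimmed the reads (Trimmomatic), mapped them to mm10 (STAR), counted read pairs per gene (featureCounts) and divided them by a DESeq2 size factor. Tool versions are not given in the sources used here. The deposited values are thus a normalized signal, from which 100% of read pairs were recovered as whole numbers within 0.01. The study's methods and the table's header name different GENCODE releases, so lengths and overlaps come from release M21 (GRCm38), which matched 99.2% of gene IDs. Genes without a symbol (685, at most 0.135% of read pairs) stayed in the tests.

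Groups were compared with limma 3.58.1 (R 4.3.3, eBayes with trend) on log2(normalized count + 1) for genes with a mean of at least 10, with Benjamini-Hochberg adjustment over all of them. For low genes, log2 fold changes on this scale lay on either side of those of DESeq2. They were 0.67 against 0.59 for Rarb, 1.07 against 1.00 for Lpl and 1.14 against 1.17 for Cyp26b1. DESeq2 1.42.0 and edgeR 4.0.16 (quasi-likelihood) ran on recovered read pairs. All 3 were tested on simulated data, with the same dispersion for every gene and only changes larger than those of Rarg and Aldh1a1. That test does not show how the fits handle smaller changes or more variable genes. Other settings were pseudocounts of 0.1 and 10, no minimum or a minimum mean of 50, TMM and quantile normalization, no trend, robust variances, no fold change minimum, a replicate block and each library left out. The members and lists were chosen with earlier results of these data known. Named genes are the 10 members, Proser1, called genes of the pathway list and its 2 largest changes per role, of which 1 is not reported here; Top2b, Cd3e, Tgm2, Hoxb4 and the pathway genes given as absent or scarce were added after values were seen.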

Additional observations from a re-analysis of the deposited data

How the results depend on the processing

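No gene of the pathway list and no member was called with limma at pseudocounts of 0.1 or 10, with either filter, with TMM or quantile normalization, without trend, without a fold change minimum, with edgeR, or without any 1 library. Robust variance estimates called 1 member (Cyp26b1), 1 pathway gene and 80 genes in all. DESeq2 called 1 member, 2 pathway genes and 165 genes in all, and without trend limma called 17, against 42. Leaving out libraries gave 23 to 42 calls (23 without PROSER1 KO replicate 2). With DESeq2, alternatives chosen after seeing the data gave 3 members without a fold change minimum and, with a library left out, 0 to 1 members and 1 to 2 pathway genes. The longest transcript moved 4 members in the order of levels. Of the members' log2 fold changes in these settings, 153 kept their direction and side of the threshold, 2 passed it (Cyp26b1) and 6 reversed. Aldh1a2 reversed to −0.075 at a pseudocount of 10, −0.31 with edgeR, −0.33 with DESeq2, and −0.37 to 0.44 with a library left out. Reversals in the list were Fabp5 (−0.107 to 0.010 with a library left out) and Rdh1 (0.020 with edgeR, 0.027 with DESeq2, −0.65 to 0.31 with a library left out). The cause was not tested.

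The libraries were not taken as paired by replicate number. Correlations of deviations were 0.023, 0.058 and −0.106 for the 3 shared numbers, and −0.131 to 0.142 for unlike numbers. With so few libraries, this check cannot show that no pairing existed. With the replicate block, 0 members, 0 pathway genes and 35 genes in all were called.

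Limits are few libraries, low counts for Rarb, Cyp26b1 and the 2 scarce ALDH1A genes, a Rarb count that shares exons with Top2b, and a targeted gene that was not lower.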
